A study of Mus musculus with 24 samples.

Results

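Marker genes of T cells, natural killer (NK) cells and B cells were followed in mouse liver under a high-fat diet and under the same diet with yam propagules. The list held 32 genes. A probe set was counted as a member if the platform annotation lists exactly 1 gene symbol for it and that symbol is in the list, which gave 47 probe sets for 30 genes, out of 45037 tested probe sets. For 19 genes there was 1 probe set, for 11 there were several, and Cd8a had the most, 5. The listed genes Lck and Il2rg were not matched to a probe set and were not analysed here.

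RNA was taken from the livers of male C57BL6J mice, 6 per group, and hybridised on Affymetrix arrays, 1 array per mouse. All groups first received a low-fat diet and then the experimental diet for 4 weeks, and all mice had fasted for 16 h at dissection. The HF+P mice ate a diet with 45% fat to which 5% powder of the propagules of Japanese yam had been added, the HF mice the diet with 45% fat alone, and the LF mice the low-fat diet. HF was set against LF for the effect of fat, and HF+P against HF for that of propagules. The HF samples were analysed in each of these comparisons, so that each has its own set of values and both share the HF mice; whether the same scans were used is not given in the sources used here. A p-value here covers the spread between these mice only.

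The liver holds many resident lymphocytes, and in mice NK cells and other innate lymphocytes make up a large part of them. T cells recognise antigen through a receptor that signals through the CD3 chains and CD247, which the kinase ZAP70 then reads. NK cells and cytotoxic T cells kill target cells with perforin and granzymes stored in granules, and B cells signal through CD79A and CD79B, the partners of surface immunoglobulin. Whole liver was measured, so more lymphocytes and more RNA of a marker per lymphocyte cannot be told apart.

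The deposited values are on a scale that resembles log2 intensity, from 5.36 to 15, but the arrays differ very little for most probe sets. The median SD over the 12 arrays of a comparison was 4.17e-06 for HF and LF and 4.26e-06 for HF+P and HF. For the 47 member probe sets it was 6.64 and 6.12 millionths of a unit, with a highest value of 451 and 525 millionths, and in neither comparison did a member reach an SD of 0.01. A difference on this scale is not a fold change. Values are therefore given as millionths of a deposited unit above the mean of the LF mice, or of the HF mice in the other comparison. The size of a difference is given as the standardized difference, in units of the pooled SD within groups. Mean levels of the member probe sets lay between 5.74 and 8.85, where the median of all probe sets was 6.90 or 6.85; no detection calls were used, so it is not known which members were above background. The hepatocyte markers Alb, Apoa1 and Ttr had values of 14.6 to 14.9, and the leukocyte marker Ptprc had values of 8.13 to 8.36.

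HF mouse 3 stood apart from the other HF mice in these genes. It had the highest value of the 12 mice in 20 of the 47 member probe sets in the comparison with LF, where it was the highest in 11.2% of all probe sets. In the values processed with HF+P the same mouse was again the highest in 20 of 47, against 11.4% of all probe sets. Some counts, genes and lists are given with and without this mouse. Results given only with it can move too: the standardized difference of Ccl5 in HF against LF went from 0.72 to 0.52 without it.

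No lymphocyte or NK cell marker passed the test between HF and LF livers, although nearly all had higher mean deposited values in HF. Of the 47 probe sets 43 were higher in HF and 4 lower, or 91.5% higher, against 50.8% of all probe sets, in the values as deposited; with each array centred on its median 6 were higher and after quantile normalisation 8. The median standardized difference of the members was 0.72, where that of all probe sets was 0.01. By limma with Benjamini-Hochberg adjustment over all probe sets 0 of 47 were called, against 0.671% of all probe sets (0.269% higher and 0.402% lower in HF), and the lowest adjusted p of a member was 0.184. At an unadjusted p under 0.05 there were 7 members, all higher in HF, where 5.69% of all probe sets were higher and 7.25% lower at that level. In no member did the 6 HF mice lie apart from the 6 LF mice, a separation found in 1.57% of all probe sets. Without HF mouse 3 the count was 41 of 47 higher, with 0 called.

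**Figure D1:**
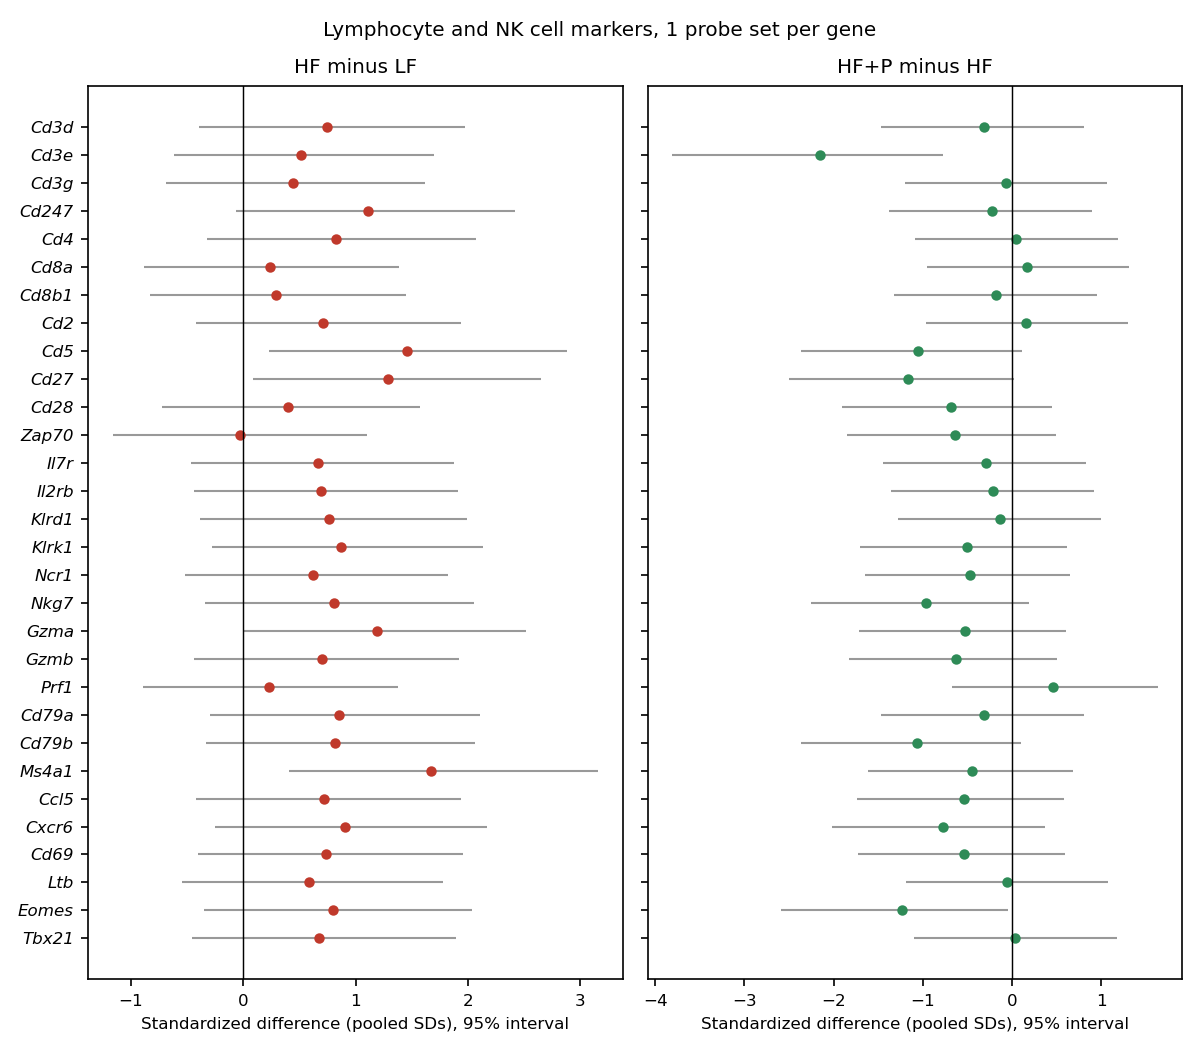
Standardized difference in pooled SDs (horizontal axis) for the 30 measured genes, each by its brightest probe set; points are estimates, lines 95% intervals, with HF minus LF on the left and HF+P minus HF on the right (6 mice per group). In the deposited values 29 of 30 genes lie right of 0 on the left and 25 of 30 left of 0 on the right; median centring or quantile normalisation turns many of these directions.

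The receptor complex of T cells was measured with 7 probe sets, all with higher means in HF as deposited and none called. With median centring 0 of 7 were higher (median -2.57), and after quantile normalisation 0 of 7 (median -1.13). The medians of all probe sets under these scalings were -2.72 and -0.73. Cd247, which encodes the zeta chain that carries much of the receptor's signal, had HF values of 0.186 to 2.30 millionths with a median of 1.10. The LF values were -1.25 to 1.60 with a median of 0.0972. The ranges overlapped, and the standardized difference was 1.11 (95% interval -0.0663 to 2.42; limma, adjusted p = 0.475). The 4 probe sets of Cd247 gave 0.36 to 1.26, all positive. The CD3 chains Cd3d, Cd3e and Cd3g, which surround the antigen receptor, had standardized differences of 0.75, 0.51 and 0.44. For Cd3e the HF values were -1.10 to 2.60 (median 0.546) and the LF values -1.30 to 1.74 (median 0.118), so that the groups lay over each other for most of their range.

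Among coreceptors and costimulatory receptors 11 of 13 probe sets were higher in HF as deposited and 0 were called; 0 of 13 were higher with median centring (median -2.72) and 2 of 13 after quantile normalisation (median -0.70). Cd5, Cd27 and Cd28 were lower in HF under both of these scalings. Cd5, a receptor of T cells and of a subset of B cells that dampens antigen signals, had HF values of 0.051 to 15.1 millionths (median 6.45) and LF values of -6.01 to 3.73 (median 0.339). HF mouse 4 was the lowest and HF mouse 5 the highest of its group, and LF mouse 8 was the lowest of all. The difference was 1.46 pooled SDs (0.231 to 2.88; unadjusted p = 0.0172, adjusted p = 0.252 by limma). Cd27, a costimulatory receptor of the tumour necrosis factor receptor family, had HF values of 0.0845 to 2.74 (median 1.15) against -1.20 to 1.29 (median -0.0225) in LF, a difference of 1.29 (0.0842 to 2.65; limma, adjusted p = 0.401). Cd28, the main costimulatory receptor of naive T cells, had a difference of 0.40, with HF values of -0.104 to 1.70 (median 0.305) and LF values of -1.40 to 2.10 (median -0.185). The coreceptors of helper and cytotoxic T cells gave smaller or similar values, 0.82 for Cd4, 0.24 for Cd8a and 0.30 for Cd8b1. The adhesion receptor Cd2 gave 0.72. The probe sets of Cd8a ranged from -0.66 to 0.83 and those of Cd28 from -0.03 to 0.40, so neither gene had a single direction.

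Zap70, the kinase that binds the phosphorylated receptor chains, was read by 3 probe sets that disagreed, at 1.67, 1.48 and, for the brightest, -0.03. The probe set at 1.67 had the lowest adjusted p of the members (unadjusted p = 0.00808, adjusted p = 0.184 by limma). Of these 3 probe sets 1 was higher in HF with median centring and 0 after quantile normalisation. Of the cytokine receptors, Il7r, which receives the survival signal of naive and memory T cells, gave 0.67 by its brighter probe set and -0.17 by the other. Il2rb, the chain shared by the receptors for interleukins 2 and 15, gave 0.70 and 1.07. None of these was called, and 0 of the 4 cytokine receptor probe sets were higher in HF with median centring or after quantile normalisation.

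Among HF and LF mice, Gzmb, Klrk1, Ccl5 and Gzma had the widest spread of all members, with SDs over the 12 arrays of 451, 316, 281 and 126 millionths. The promoters of Gzma, Klrk1, Nkg7 and Cd3e are shown. Gzma and Klrk1 are among the members in which HF mouse 3 lay far above the other HF mice in the comparison with LF. Nkg7 belongs to the same granules as Gzma. Cd3e is the member whose groups did not overlap in the comparison of HF+P with HF. The 250 bases before the gene start are given 5′ to 3′, from RefSeq on GRCm38.p6, and capitals mark exact matches on either strand to an ETS motif (CAGGAAGT), a RUNX motif (TGTGGT) or a T-box motif (AGGTGTGA), the binding sequences of transcription factor families of lymphocytes.
Gzma, chr13:113100982-113101231, minus strand: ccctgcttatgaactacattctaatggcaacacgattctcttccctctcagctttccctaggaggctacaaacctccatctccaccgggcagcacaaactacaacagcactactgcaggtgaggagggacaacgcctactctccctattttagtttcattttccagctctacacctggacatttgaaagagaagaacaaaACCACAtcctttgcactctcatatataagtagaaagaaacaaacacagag
Klrk1, chr6:129623865-129624114, minus strand: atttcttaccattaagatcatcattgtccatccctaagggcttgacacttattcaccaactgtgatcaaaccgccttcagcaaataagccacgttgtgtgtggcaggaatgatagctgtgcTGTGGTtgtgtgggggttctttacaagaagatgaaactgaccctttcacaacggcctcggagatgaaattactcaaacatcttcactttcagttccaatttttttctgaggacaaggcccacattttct
Nkg7, chr7:43436888-43437137, plus strand: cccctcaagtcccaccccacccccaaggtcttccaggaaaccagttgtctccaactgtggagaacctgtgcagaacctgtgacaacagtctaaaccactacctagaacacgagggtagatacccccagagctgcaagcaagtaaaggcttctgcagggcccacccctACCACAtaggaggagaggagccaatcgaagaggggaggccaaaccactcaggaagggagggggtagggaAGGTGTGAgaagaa
Cd3e, chr9:45009612-45009861, minus strand: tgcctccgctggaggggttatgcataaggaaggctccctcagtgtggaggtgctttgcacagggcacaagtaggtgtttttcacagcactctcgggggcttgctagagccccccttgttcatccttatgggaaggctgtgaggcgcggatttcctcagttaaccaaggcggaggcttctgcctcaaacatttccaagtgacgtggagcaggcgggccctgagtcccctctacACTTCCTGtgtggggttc
The RUNX motif stands in Gzma, Klrk1 and Nkg7, the T-box motif in Nkg7 and the ETS motif in Cd3e. Promoter entries were matched for 20 of the measured genes, 23 entries in all. A gene was counted if any of its entries held the motif, whereas the shares of all promoters are per entry, so the measures are not quite alike. The RUNX motif was in 8 of them (Cxcr6, Gzma, Gzmb, Klrk1, Ncr1, Nkg7, Prf1 and Zap70), against 14.0% of all 32851 promoter entries. The ETS motif was in 6 (Cd247, Cd3e, Cd79a, Il7r, Prf1 and Tbx21), against 2.69%, and the T-box motif in Nkg7 alone, against 1.12%. A match describes these letters and no binding was measured.

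Gzma, granzyme A, a serine protease of cytotoxic granules, had HF values of 9.35 to 406 millionths with a median of 106. The LF values were -86.6 to 85.1 with a median of 1.32. HF mouse 3 lay far above the others at 406, the next HF mouse was at 138, and HF mouse 1 was the lowest. The means differed by 139 millionths, or 1.19 pooled SDs (-1.63e-05 to 2.52), with an unadjusted p of 0.0421 and an adjusted p of 0.361 by limma. Without HF mouse 3 the standardized difference was 1.34, since the spread of the HF group shrank more than the difference.

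Gzmb, granzyme B, which cleaves caspases in the target cell, had HF values of -44.8 to 1540 (median 129) and LF values of -128 to 104 (median 12.5). Here HF mouse 3 was at 1540 and the next HF mouse at 283. The difference was 0.70 (-0.433 to 1.92; limma, adjusted p = 0.630). Nkg7, a membrane protein of the granules, had HF values of -33.6 to 130 (median 45.0) and LF values of -27.7 to 33.7 (median -10.0), a difference of 0.81 (-0.336 to 2.05; limma, adjusted p = 0.564), and of -0.50 with median centring and -0.73 after quantile normalisation. Of the 5 probe sets of granule genes 5 were higher in HF as deposited and 2 under each of these scalings. Prf1, the pore-forming perforin, gave 0.23 and 0.32 by its probe sets.

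Klrk1, which encodes the activating receptor NKG2D, had HF values of -49.8 to 1030 with a median of 164. The LF values were -160 to 250 with a median of -9.38. HF mouse 3 was at 1030 and the next HF mouse at 298, while LF mouse 8 was the highest LF mouse. The difference was 0.87 (-0.281 to 2.13; limma, adjusted p = 0.529), and 0.81 without HF mouse 3. Klrd1, the CD94 partner of inhibitory and activating NK receptors, gave 0.76 and Ncr1, the NK receptor NKp46, gave 0.62. Of the 3 probe sets of NK receptors 3 were higher in HF as deposited and 1 under each scaling.

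Ccl5, a chemokine that effector T and NK cells make, had HF values of -68.8 to 920 millionths (median 110) and LF values of -107 to 232 (median -35.1). HF mouse 3 was at 920 and the next HF mouse at 205, and LF mouse 3 was the highest LF mouse. The difference was 0.72 (-0.420 to 1.94; limma, adjusted p = 0.620). Cxcr6, a chemokine receptor that keeps NKT and resident T cells in the liver sinusoids, had HF values of 2.90 to 54.8 (median 23.9) and LF values of -31.6 to 45.1 (median -7.63), a difference of 0.90 (-0.251 to 2.17), and of -1.17 with median centring and -0.90 after quantile normalisation. Its other probe set gave 0.92. Cd69, an early activation and residency marker, gave 0.73 and Ltb, lymphotoxin beta, gave 0.58. Of the T-box factors that specify cytotoxic lymphocytes, Tbx21 gave 0.68. Eomes gave 0.80, with HF values of -10.6 to 30.7 (median 8.81) and LF values of -8.34 to 10.8 (median -0.188), and 0.65 by its other probe set. All 3 probe sets of the T-box factors were higher in HF as deposited and 0 under either scaling.

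B cell genes were higher in HF by all 4 probe sets as deposited, with 0 called; 0 of 4 were higher with median centring (median -2.37) and 1 of 4 after quantile normalisation (median -1.03). Ms4a1, Cd79a and Cd79b, by the probe sets given here, were lower in HF under both of these scalings. Ms4a1, which encodes CD20, had HF values of 1.74 to 6.62 millionths (median 3.69) and LF values of -2.24 to 3.08 (median -0.742). Every HF mouse lay above the LF median, but 2 LF mice, at 2.69 and 3.08, lay above the lowest HF mouse. The difference was 1.67 (0.407 to 3.16; unadjusted p = 0.00954, adjusted p = 0.195 by limma), and the other probe set of Ms4a1 gave 1.44. Cd79a had HF values of -0.265 to 1.79 (median 0.349) and LF values of -0.459 to 0.907 (median -0.0903), a difference of 0.86. Cd79b had HF values of -4.52 to 16.8 (median 8.88) and LF values of -10.9 to 5.67 (median 2.20), a difference of 0.82.

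**Figure D2:**
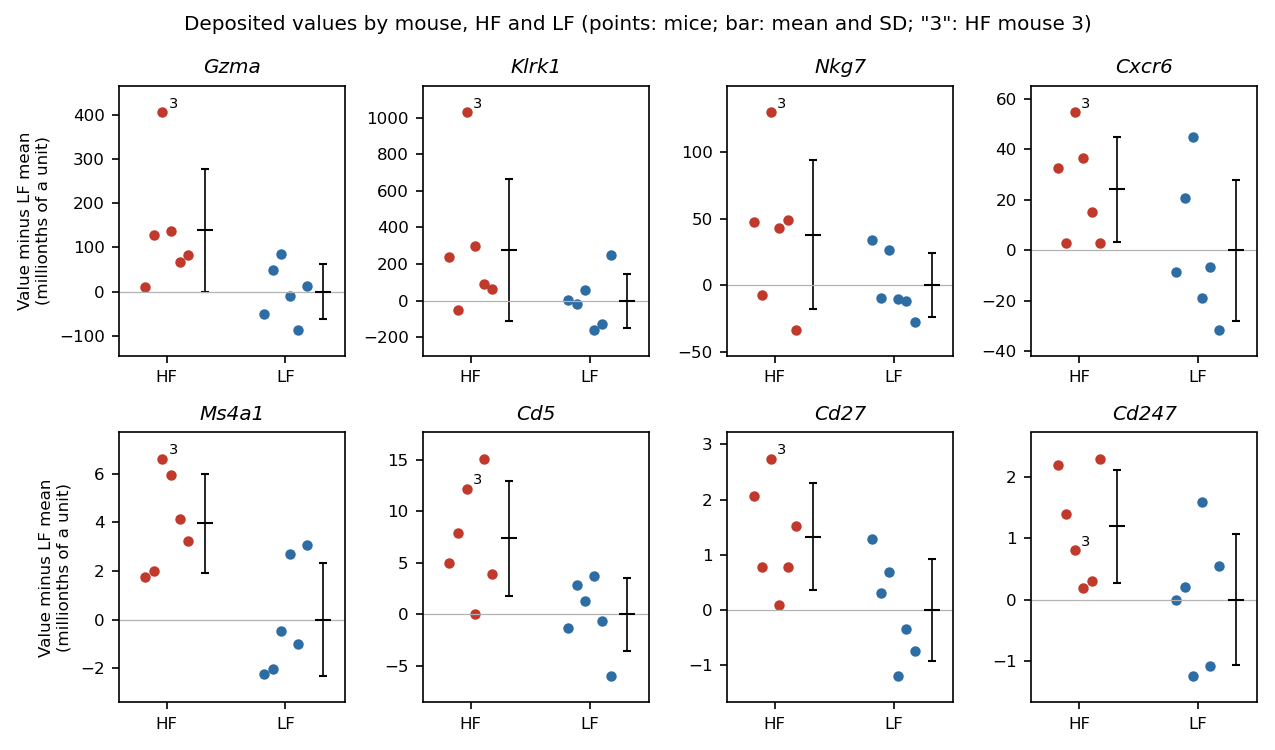
Deposited values of 8 members as millionths of a unit above the LF mean (vertical axis, a separate scale for each gene) in the 6 HF and 6 LF mice; points are mice, bars the mean and SD, and "3" marks HF mouse 3. Gzma and Klrk1 have a single HF mouse far above the others (406 and 1030), while for Ms4a1, Cd5 and Cd27 the HF mice spread more evenly over ranges that overlap LF; the last 3 genes were lower in HF with median centring and after quantile normalisation.

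The members differ in whether their difference exceeds what a rescaling of the arrays would move. The column medians of HF arrays lay 64.5 millionths above those of LF arrays, and 6 of 47 member probe sets had a larger difference, as did 5.25% of all probe sets. These were Gzmb (333 millionths), Klrk1 (278), Ccl5 (211), Gzma (139), and a probe set each of Zap70 (122) and Cxcr6 (73.9). Median centring takes this shift out of every difference, so these 6 had to stay higher in HF with it. The sizes left were 0.57, 0.66, 0.49, 0.57, 0.71 and 0.11 pooled SDs. After quantile normalisation Gzmb, Klrk1, Gzma and Cxcr6 stayed higher (0.61, 0.59, 0.79 and 1.22), while Ccl5 was at -0.37 and Zap70 at -2.25. The other 41 probe sets were lower in HF with median centring, which follows from their smaller differences in the same way.

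The part of HF mouse 3 differed between the roles. Its mean over the 30 genes was 1.95 pooled SDs above the LF mean, against 0.23 to 0.79 in the other HF mice and -0.23 to 0.37 in LF mice. It was the highest of the 12 mice for NK receptors (3.03, next HF mouse 0.75), T-box factors (2.54, next 1.0), chemokine and homing genes (2.49, next 0.89), granule genes (2.37, next 0.81) and the T cell receptor complex (2.13, next 0.87). For B cell genes it was at 2.09 with HF mouse 4 at 1.76, and for coreceptors at 1.37 with HF mouse 8 at 1.25. For the cytokine receptors it was, at 0.10, the lowest HF mouse. The mean over all members in HF was 0.81 with this mouse and 0.58 without it, where the LF mean is 0 by construction.

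**Figure D3:**
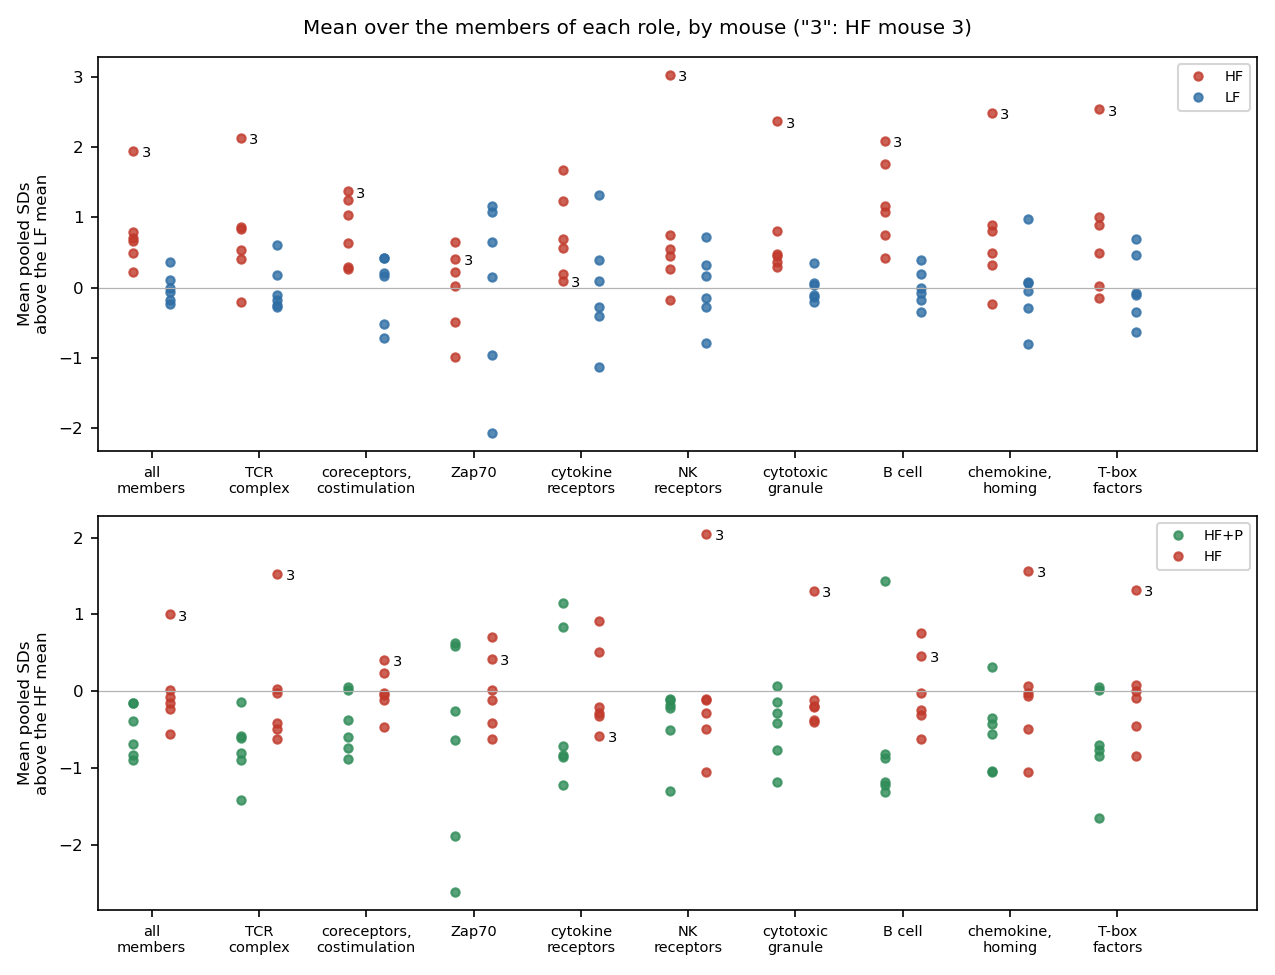
Mean over the members of each role, in pooled SDs above the LF mean (upper panel, HF and LF mice) or above the HF mean (lower panel, HF+P and HF mice), 1 probe set per gene; points are mice and "3" marks HF mouse 3. In the upper panel HF mouse 3 stands highest for NK receptors at 3.03, and it stands highest of the HF mice for this role in the lower panel at 2.05.

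Further genes of the same cells were taken from lists of T, NK and B cell genes. In the values as deposited, of 30 probe sets for 17 further T cell genes 21 were higher in HF (median 0.20), of 33 for 19 further NK and cytotoxic genes 21 (median 0.36), and of 33 for 17 further B cell genes 25 (median 0.62). With median centring 0, 1 and 2 of these probe sets were higher in HF, and after quantile normalisation 7, 8 and 7. Leaving out HF mouse 3 gave 15, 21 and 25 higher, with medians of -0.02, 0.27 and 0.50. In these lists a single probe set was called by limma: that of Cd37, a tetraspanin abundant on B cells, with a standardized difference of 3.06 (1.46 to 5.11; adjusted p = 0.0398). Its difference was 4.80 millionths, below the shift of column medians, and its direction was opposite with median centring (-2.65) and after quantile normalisation (-2.89). Leaving out 1 mouse lost the call in 11 of the 12 fits (adjusted p of 0.0542 to 0.0934); the call was kept without HF mouse 8. Among ligands and chemokine signals 19 of 20 probe sets were higher in HF (median 0.82, 0 called), but 5 with median centring and 6 after quantile normalisation. Il18, a cytokine that activates NK cells, gave 1.89 (adjusted p = 0.135 by limma), 1.05 with median centring and -1.50 after quantile normalisation. Il15, the survival factor of NK cells, gave 1.61 (adjusted p = 0.200 by limma), -1.61 with median centring and -0.59 after quantile normalisation.

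Markers of other immune and liver cells are given for the same mice, first in the values as deposited. Pan-leukocyte markers were higher in HF in 25 of 27 probe sets (median 0.82), Kupffer cell and macrophage markers in 16 of 20 (0.66), dendritic cell markers in 7 of 11 (0.17) and neutrophil markers in 6 of 8 (0.44), with 0 called in each. MHC class II genes were higher in 14 of 14 (0.94) and interferon response genes in 22 of 24 (1.02), also with 0 called. With median centring the counts higher in HF were 14 of 27 for pan-leukocyte markers, 16 of 20 for macrophage markers, 10 of 14 for MHC class II genes and 20 of 24 for interferon response genes, but 0 of 11 for dendritic cell and 1 of 8 for neutrophil markers. After quantile normalisation they were 15, 13, 10, 20, 3 and 2 in the same order. The first 4 counts were 24, 15, 13 and 22 without HF mouse 3. HF mouse 3 had the highest value of the 12 mice for pan-leukocyte markers (2.98), interferon response genes (3.64), MHC class II genes (3.52) and macrophage markers (2.16). Over the other HF mice these means ranged from -0.03 to 0.97, 0.25 to 1.10, -0.35 to 1.08 and -0.39 to 0.73. LF mouse 3 was at 1.07 for pan-leukocyte and 1.54 for macrophage markers, above every HF mouse other than mouse 3. Hepatocyte markers were lower in HF in 14 of 17 probe sets as deposited (median -0.64, 0 called), with HF mouse 3 and HF mouse 2 lowest at -1.37. They were lower in 17 of 17 with median centring and in 7 of 17 after quantile normalisation. Endothelial, bile duct and red blood cell markers were higher in HF in 9 of 15, 3 of 9 and 3 of 5 probe sets as deposited, with 0 called, and in 1, 0 and 1 with median centring. Stellate cell markers were higher in 7 of 16; Lrat, the retinol esterifying enzyme of stellate cells, was called (3.01; limma, adjusted p = 0.0300) and stayed higher with median centring (1.36) and after quantile normalisation (0.97, no longer called). Leaving out 1 mouse lost that call in 8 of the 12 fits; it was kept without HF mouse 1, 5 or 8 or LF mouse 3. The part of other cell types in the values of the members was not tested.

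Between HF+P and HF livers no lymphocyte or NK cell marker passed the test, and most had lower mean deposited values in HF+P. Of the 47 probe sets 38 were lower in HF+P and 9 higher, or 80.9% lower, against 50.6% of all probe sets, in the values as deposited; with median centring 16 were lower and after quantile normalisation 25. The median standardized difference was -0.45, where that of all probe sets was -0.01. By limma 0 of 47 were called, against 0.00222% of all probe sets (a single probe set, higher in HF+P), and the lowest adjusted p was 0.510. At an unadjusted p under 0.05 there were 4 members, all lower in HF+P, where 3.20% of all probe sets were lower and 3.74% higher at that level; they were Cd3e, Eomes, Cd27 and a probe set of Ms4a1 (-1.20). Without HF mouse 3 the count was 35 of 47 lower and the median -0.19, with 0 called.

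Cd3e was the member whose groups did not overlap. The HF+P values were -4.01 to -2.20 millionths with a median of -3.0. The HF values were -1.22 to 3.27 with a median of -0.510, and HF mouse 3 was the highest. All 6 HF+P mice lay below all 6 HF mice, as in 1 of the 47 members; 0.355% of all probe sets separated the groups, 0.193% with lower values in HF+P. The standardized difference was -2.15 (-3.81 to -0.780; unadjusted p = 0.00321, adjusted p = 0.510 by limma). The means differed by -3.0 millionths, less than the column medians did (-4.09), and the standardized difference was 0.16 with median centring and 0 after quantile normalisation. The other chains of the receptor complex did not show it: Cd3d gave -0.31, Cd3g -0.07 and Cd247 -0.23, with HF+P values of Cd247 of -2.76 to 0.532 (median 0.157) and HF values of -1.37 to 1.55 (median -0.219). The probe sets of Cd247 ranged from -0.57 to 0.06.

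Eomes had HF+P values of -52.4 to 4.26 millionths (median -26.0) and HF values of -24.2 to 20.5 (median -1.50). HF+P mouse 8 was the highest of its group and HF mouse 3 the highest of all. The difference was -1.24 (-2.59 to -0.0441, with an unadjusted p of 0.0351 and an adjusted p of 0.699 by limma). By this probe set Eomes stayed lower with median centring (-0.95) and after quantile normalisation (-1.33). The other probe set of Eomes gave -0.45 as deposited. Of the 3 probe sets of the T-box factors, 1 was lower in HF+P with median centring and 2 after quantile normalisation. Tbx21, the related factor, gave 0.03. Among costimulatory receptors, Cd27 had HF+P values of -7.64 to 0.161 (median -2.96) and HF values of -1.78 to 3.09 (median -0.475), a difference of -1.17, and of 0.12 with median centring and 0.16 after quantile normalisation. Cd5 had HF+P values of -7.32 to 0.706 (median -3.69) and HF values of -4.18 to 4.45 (median -0.460), a difference of -1.06, and of 0.12 with median centring. Cd28 gave -0.69, and 0.28 and 0.53 under the same scalings as Cd27, with HF+P values of -4.91 to 2.46 (median -3.18) and HF values of -2.50 to 4.03 (median -0.402). Cd2, Cd4, Cd8a and Cd8b1 gave 0.16, 0.04, 0.17 and -0.18. The probe sets of Cd4 ranged from -0.64 to 0.04 and those of Cd8a from -0.77 to 0.39, so neither gene had a single direction.

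Of the granule and NK genes, Nkg7 had HF+P values of -61.2 to -10.1 millionths (median -50.2) and HF values of -72.3 to 95.8 (median 7.01). HF mouse 8 was the lowest of the 12 mice and HF mouse 3 the highest. The difference was -0.97 (-2.25 to 0.191, adjusted p = 0.761 by limma). It was -0.82 with median centring, -1.08 after quantile normalisation and -0.83 without HF mouse 3. Gzma had HF+P values of -207 to 27.9 (median -71.2) and HF values of -166 to 299 (median -40.1), a difference of -0.53, and of -0.15 without HF mouse 3. Gzmb had HF+P values of -625 to 142 (median -369) and HF values of -443 to 1340 (median -216), a difference of -0.62, and of -0.31 without that mouse. Klrk1 had HF+P values of -181 to 36.4 (median -118) and HF values of -188 to 494 (median -81.0), a difference of -0.51, and of -0.06 without it. Ccl5 had HF+P values of -280 to -86.8 (median -142) and HF values of -292 to 749 (median -98.2), a difference of -0.54, and of -0.12 without it. Of the 6 HF+P mice, 4 lay within the range of the other 5 HF mice for Gzma, 3 for Gzmb, 5 for Klrk1 and 6 for Ccl5. Klrd1 gave -0.14, Ncr1 -0.47 and Prf1 0.45.

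The B cell gene Cd79b had HF+P values of -48.9 to 6.66 millionths (median -25.4) and HF values of -23.4 to 26.8 (median 2.27). Its difference was -1.07 (-2.37 to 0.102, adjusted p = 0.729 by limma), -0.74 with median centring and -0.69 after quantile normalisation. Ms4a1 had HF+P values of -12.6 to 16.9 (median -7.00) and HF values of -5.83 to 6.61 (median 0.225), with HF+P mouse 3 alone above all HF mice. Its difference was -0.45 as deposited, -0.0 with median centring and 0.53 after quantile normalisation. Cd79a had HF+P values of -6.08 to 6.53 (median -1.48) and HF values of -2.18 to 2.51 (median 0.252), a difference of -0.31, and of 0.38 with median centring. Cxcr6 had HF+P values of -26.0 to 4.39 (median -10.7) and HF values of -12.5 to 16.8 (median -1.04), a difference of -0.78. Its other probe set gave -0.29. The remaining members Cd69, Ltb, Il2rb, Il7r and Zap70 gave -0.54, -0.05, -0.21, -0.29 and -0.64. The probe sets of Il2rb ranged from -0.7 to -0.21, those of Il7r from -0.29 to -0.15 and those of Zap70 from -1.03 to -0.64.

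**Figure D4:**
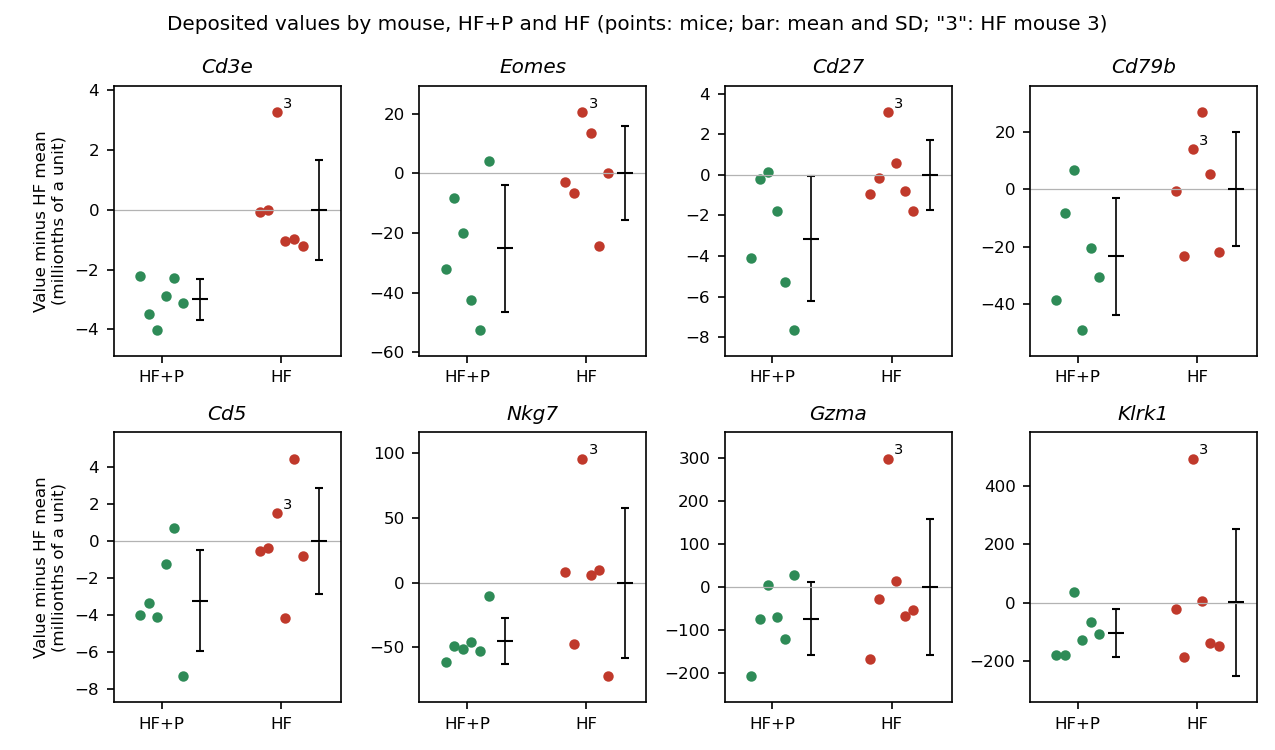
Deposited values of 8 members as millionths of a unit above the HF mean (vertical axis, a separate scale for each gene) in the 6 HF+P and 6 HF mice; points are mice, bars the mean and SD, and "3" marks HF mouse 3. For Cd3e every HF+P mouse lies below every HF mouse in the deposited values, and with median centring this gene was at 0.16 pooled SDs; for Gzma and Klrk1 most mice of both groups overlap apart from HF mouse 3 at 299 and 494.

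Over all 30 genes the mean per mouse was -0.90 to -0.15 in HF+P mice, against -0.56 to 1.0 in HF mice, in pooled SDs from the HF mean. HF mouse 3 was at 1.0 and the next HF mouse at 0.02. The HF mean was -0.20 without that mouse, against a mean of -0.52 in HF+P mice. Further T cell, NK and B cell genes were lower in HF+P in 23 of 30, 20 of 33 and 25 of 33 probe sets as deposited, with 0 called and medians of -0.23, -0.15 and -0.37. Each of these counts was 8 with median centring, and they were 18, 14 and 16 after quantile normalisation. Without HF mouse 3 they were 20, 14 and 23. Ligands and chemokine signals were lower in 20 of 20 (median -0.52, 0 called), and in 13 with median centring and 11 after quantile normalisation; Il15ra, which presents interleukin 15 to NK cells, gave -1.49 (limma, adjusted p = 0.627) and Il15 gave -0.84. Pan-leukocyte markers were lower in 23 of 27 (median -0.62), macrophage markers in 19 of 20 (-0.65), MHC class II genes in 14 of 14 (-0.27) and interferon response genes in 21 of 24 (-0.53), with 0 called in each. With median centring these counts were 16, 19, 12 and 20, and after quantile normalisation 17, 16, 11 and 22. Without HF mouse 3 they were 21, 18, 3 and 16, so that MHC class II genes were then lower in HF+P in 3 of 14 probe sets (median 0.23). Dendritic cell, neutrophil and red blood cell markers were lower in 8 of 11, 6 of 8 and 5 of 5 as deposited, and in 2, 3 and 4 with median centring. Hepatocyte, endothelial, stellate cell and bile duct markers were lower in 6 of 17, 7 of 15, 8 of 16 and 3 of 9, with 0 called. With median centring these counts were 0, 1, 7 and 1, and after quantile normalisation 1, 7, 10 and 3. The part of other cell types in these values was not tested. Because both comparisons share the HF mice, a high HF mouse raises HF against LF and against HF+P alike, and the values of the comparisons are not independent of each other.

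**Figure D5:**
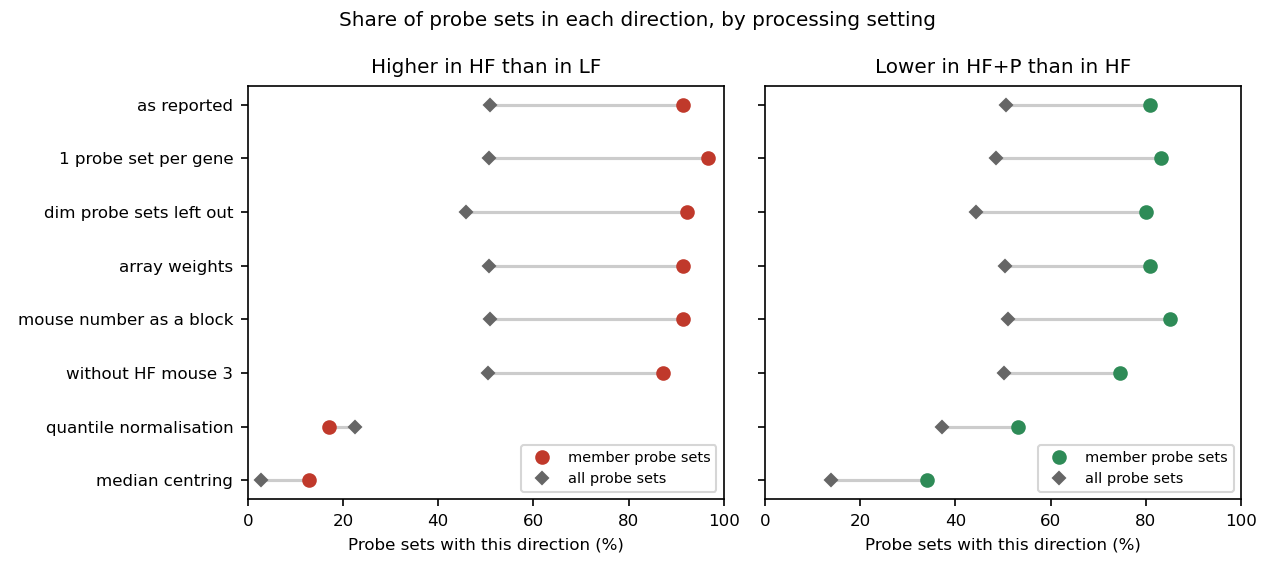
Share of the member probe sets (circles) and of all probe sets (diamonds) that were higher in HF than in LF (left) or lower in HF+P than in HF (right), in percent, for 8 ways of processing. The members stand at 91.5% and 80.9% as reported and at 87.2% and 74.5% without HF mouse 3. With quantile normalisation they stand at 17% and 53.2%, and all probe sets at 22.6% and 37.1%. With median centring the members stand at 12.8% and 34%, and all probe sets at 2.87% and 13.8%.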

How the data were processed

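The authors deposited 1 table of processed array values, handled as log2 because they range from 5.36 to 15.0; the submitters' processing notes name R 2.7.2. How probe sets were summarised and normalised, and the base of the logarithm, is not given in the labels or file headers. Per the labels' protocols, amplified RNA was made from 200 ng of total RNA extracted with Trizol. Of the 45101 probe sets, 64 control probe sets were left out. Symbols came from the platform annotation: 932 probe sets with several symbols and those with no symbol listed were not named.

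Each comparison was fitted on all 45037 probe sets with limma 3.58.1 in R 4.3.3 (lmFit and eBayes, 6 mice per group, no covariate, two-sided, Benjamini-Hochberg, threshold 0.05). The standardized difference is Hedges' estimate with a 95% noncentral t interval. The procedure was tested on simulated data. A gene is represented by its probe set with the highest mean. The number of arrays limits the precision.

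The members and lists were chosen with earlier results of these data known. Genes given with full values were those past the threshold, without overlap, with an SD above 0.01, or among the 8 largest standardized differences per comparison; Gzmb and Ccl5 were added after their values were seen. From each other list, up to 3 called genes or else the 2 with the smallest p could be named. Same-numbered mice were checked for pairing: the correlations of their deviations ranged from -0.13 to 0.0976 (HF, LF) and from 0.0338 to 0.209 (HF+P, HF), so mice were treated as unpaired. The alternatives tried were 2 scalings, 2 filters, 1 probe set per gene, trend and robust settings, array weights, the mouse number as a block, a threshold of 0.10 and leaving out each mouse; recomputing the other lists under the scalings and without HF mouse 3 was added after seeing the data.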

Additional observations from a re-analysis of the deposited data

Results flagged for a closer look

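In 13 of 188 groups of 6 values (47 probe sets in 4 groups each), a single mouse lay apart from the other 5 by Dixon's criterion. Chance meets this criterion in about 1 group in 20. In 9 of the 13 that mouse was HF mouse 3. The HF mice enter in both sets of values and all probe sets share the same mice, so the 188 groups are not separate observations. Ccl5, Gzmb and Klrk1 of HF mouse 3 are each counted in both sets. Against LF it was the highest HF mouse for Gzma at 3.76 pooled SDs above the LF mean, for Gzmb at 3.53, for Klrk1 at 3.50, for Ccl5 at 3.40 and for Ncr1 at 3.08. In the values processed with HF+P it was the highest HF mouse for Ccl5 at 2.73 pooled SDs above the HF mean, for Klrk1 at 2.62, for Gzmb at 2.59 and for Cd3e at 2.54. In HF+P, mouse 3 was the lone highest for Ms4a1 at 1.99, mouse 1 the lone lowest for Cd247 at -2.23, mouse 8 the lone lowest for Cd2 at -1.21 and mouse 8 the lone highest for Nkg7 at -0.235 pooled SDs from the HF mean.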

How the results depend on the processing

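The direction of most members in HF against LF depended on the scaling between arrays. For many members in HF+P against HF, and for many of all probe sets in both comparisons, the direction also depended on this scaling. HF against LF after quantile normalisation had 8 of 47 members higher, a median standardized difference of -0.90 and 6 members called, all lower; limma then called 174 probe sets higher and 6592 lower over all genes, against 121 and 181 as reported. Genes that turned lower in HF were Ccl5 (-0.37), Cd247 (-2.57), Cd27 (-1.10), Cd28 (-0.30), Cd3e (-1.06), Cd5 (-1.03), Cd79a (-1.11), Cd79b (-1.35), Cxcr6 (-0.90), Eomes (-0.53), Ms4a1 (-0.96), Nkg7 (-0.73), Cd37 (-2.89), Il18 (-1.50) and Il15 (-0.59). With each array centred on its median, 6 of 47 members were higher, the median was -2.32 and 39 members were called, all lower, with 322 probe sets called higher and 42047 lower in all. There Cd247 was at -2.71, Cd27 at -2.72, Cd28 at -2.82, Cd3e at -2.76, Cd5 at -2.32, Cd79a at -2.76, Cd79b at -2.24, Cxcr6 at -1.17, Eomes at -1.90, Ms4a1 at -2.49, Nkg7 at -0.50, Cd37 at -2.65 and Il15 at -1.61. In HF+P against HF, 25 members were lower after quantile normalisation, with Cd27 at 0.16, Cd28 at 0.53, Cd3e at 0.00 and Ms4a1 at 0.53. With median centring 16 were lower and the median was 0.16, against 0.52 for all probe sets. Cd247 was then at 0.57, Cd27 at 0.12, Cd28 at 0.28, Cd3e at 0.16, Cd5 at 0.12 and Cd79a at 0.38. The cause was not tested.

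No member was called in either comparison with 1 probe set per gene, without dim probe sets, with trend and robust settings, with array weights, at an adjusted p of 0.10 or in any of the 12 fits without 1 mouse. Fewer probe sets were counted without dim ones (12 of 13 higher in HF, 8 of 10 lower in HF+P) and with 1 per gene (25 of 30 lower in HF+P). Without 1 mouse, 41 to 46 members were higher in HF (median 0.58 to 0.86) and 34 to 43 lower in HF+P (median -0.56 to -0.19); calls over all probe sets in HF against LF were 57 to 121 higher and 74 to 205 lower. The standardized difference of Cd247 in HF+P against HF ranged from -0.44 to 0.18 in these fits, the highest without HF+P mouse 1. The standardized differences of Cd37 and Lrat in HF against LF ranged from 2.83 to 3.50 and from 2.79 to 3.63; Lrat was at 0.97 and not called after quantile normalisation. Without dim probe sets, 193 probe sets were called higher and 375 lower in HF. No member had an SD of 0.01, so the filter on near-constant probe sets gave no value.

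With the mouse number as a replicate block, 0 members were called in either comparison, 43 of 47 were higher in HF (median 0.69) and 40 of 47 lower in HF+P (median -0.32). The calls of Cd37 (2.26; limma, adjusted p = 0.142) and Lrat (2.81; limma, adjusted p = 0.0804) were lost. The numbers do not show that mice were paired, and HF mouse 5 and HF+P mouse 7 had no partner.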
